A study of Mus musculus with 8 samples.

Results

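The mesenchymal microRNAs (miRNAs) miR-199 and miR-214 were examined in the kidneys of ICR mice, an outbred strain, 7 days after ligation of one ureter. The rule for the members used names only. It took the 5 entries mmu-miR-199a-5p, mmu-miR-199a-3p, mmu-miR-199b*, mmu-miR-214 and mmu-miR-214* among the 611 mouse miRNAs of the array. Members and lists were chosen with earlier results of these data known, so their counts of calls are description and no independent support. The prefix mmu for mouse is left out below except where a member's values are given. The obstructed group held 4 kidneys whose ureter had been ligated (UUO, unilateral ureteral obstruction) and the contralateral group held 4 kidneys without obstruction. Both groups therefore came from mice that had undergone the ligation, and the contralateral kidney is not the kidney of an unoperated mouse. Each kidney was hybridised to its own 1-colour Agilent array from 100 ng of total RNA. The labels state neither that kidneys of a group came from separate mice nor that kidneys with the same number shared a mouse, so p-values measure only the spread between these samples.

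A miRNA hairpin yields a strand from each arm, named 5p and 3p, and the older array names mark the less abundant strand with an asterisk. The loaded strand finds messenger RNAs mainly through its seed, bases 2 to 8 from the 5′ end. miR-199a and miR-214 are cut from one long noncoding transcript, Dnm3os, which in mouse runs opposite to the gene of dynamin 3 and is active in embryonic mesenchyme, fibroblasts and other stromal cells. In organ fibrosis both are widely described as fibroblast-associated, miR-199a-5p for targeting caveolin 1 and miR-214 for targeting mitochondrial and growth regulators. Further hairpins of the miR-199 family lie in other dynamin genes.

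The mature sequences are shown because the array reads the strands, not the genes that encode them, and capitals mark the seed. They are from RefSeq on GRCm38.p6, which held 4 of the 5 members.
miR-199a-5p: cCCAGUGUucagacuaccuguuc
miR-199a-3p: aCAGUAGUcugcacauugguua
miR-214 (miR-214-3p in RefSeq): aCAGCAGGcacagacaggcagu
miR-214* (miR-214-5p in RefSeq): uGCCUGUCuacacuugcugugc
The 4 seeds all differed. The seeds of miR-199a-3p and miR-214, both 3p strands of 22 bases, had the same base at 5 of 7 positions. The miR-199a-5p strand was encoded identically at 2 loci. The miR-199a-3p strand was encoded at 3, since the RefSeq entry miR-199b-3p is the same sequence, so its signal on the array is a sum over the loci and cannot be divided between them. The seed of miR-214 was shared in RefSeq by miR-761, which was above background on 0 of 8 arrays, and no other RefSeq name had the seed of miR-199a-5p or of miR-214*.

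The hairpins show how the strands lie to each other, with the mature strands that RefSeq annotates in capitals. Mir199a-2 (chr1:162217814-162217923, plus strand) and Mir214 (chr1:162223368-162223477, plus strand) lay 5444 bases apart within the span of Dnm3os (chr1:162217623-162225550), inside the gene Dnm3. Mir199a-1 (chr9:21496495-21496564, minus strand) lay within the span of Dnm2 and Mir199b (chr2:32318460-32318569, plus strand) within that of Dnm1.
Mir199a-2: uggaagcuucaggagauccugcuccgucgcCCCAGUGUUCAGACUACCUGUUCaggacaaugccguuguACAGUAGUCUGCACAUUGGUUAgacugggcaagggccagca
Mir214: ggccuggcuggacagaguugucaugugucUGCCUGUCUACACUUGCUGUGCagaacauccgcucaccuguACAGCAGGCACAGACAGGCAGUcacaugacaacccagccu
Mir199a-1: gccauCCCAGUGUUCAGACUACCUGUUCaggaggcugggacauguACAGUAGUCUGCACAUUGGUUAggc

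**Figure D1:**
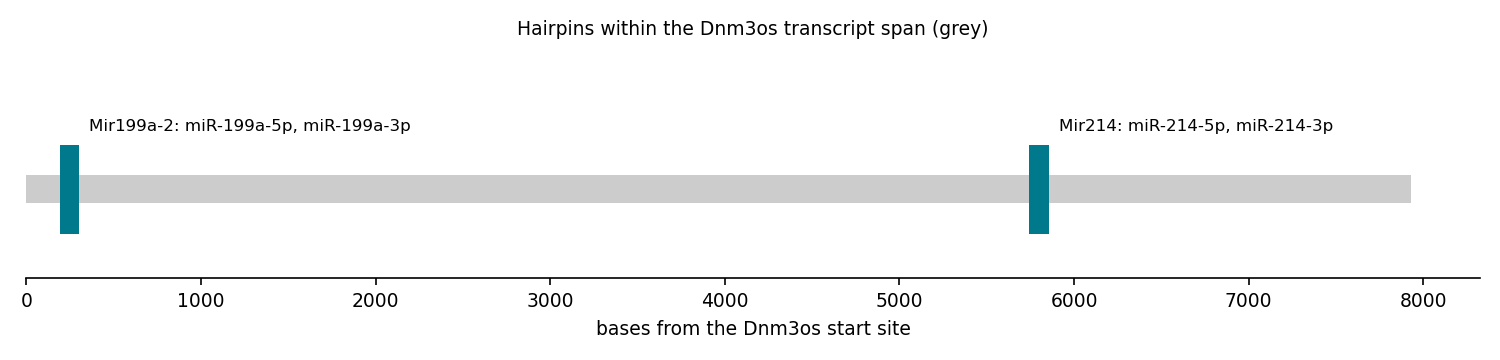
Map of the Dnm3os transcript span (grey bar) with its hairpins (blue-green), drawn to scale in bases from the Dnm3os start site. Mir199a-2 begins 191 bases and Mir214 begins 5745 bases after that site.

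The promoter of Dnm3os is shown as background on the host transcript, and no array measured Dnm3os itself. Whether the promoter had a part in the changes below was not tested. In mouse, the E-box binding factor Twist1 is known to drive the transcript. The window covers 250 bases before to 50 after the start site on GRCm38.p6 (RefSeq, chr1:162217373-162217672, plus strand), with motif matches on either strand in capitals.
Dnm3os promoter: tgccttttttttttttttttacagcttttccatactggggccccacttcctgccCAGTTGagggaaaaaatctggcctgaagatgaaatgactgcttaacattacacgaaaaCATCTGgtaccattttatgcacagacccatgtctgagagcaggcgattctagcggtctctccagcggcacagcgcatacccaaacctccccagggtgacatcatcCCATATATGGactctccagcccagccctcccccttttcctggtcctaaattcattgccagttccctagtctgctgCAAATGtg
The E-box, CANNTG, matched 3 times, and 72.3% of the 32851 mouse promoter windows of the same length held a match. The CArG box, the motif of serum response factor, matched once, 33 bases before the start site, against 1.63% of windows. The AP-1 motif TGANTCA had 0 matches, and 7.81% of windows held it. No match overlapped another, and a match is a run of letters rather than a measured binding site.

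Before the values, the arrays need a word. The 75th percentile signal lay between 514 and 1595 on the obstructed arrays and between 417 and 582 on the contralateral arrays. Between 243 and 310 miRNAs were above background on the obstructed arrays, and between 228 and 240 on the contralateral arrays. All 8 arrays shared 1 slide and 1 scan, with kidneys 1 and 2 of both groups in slide row 1 and kidneys 3 and 4 in slide row 2. Obstructed kidney 2 stood apart. Across the 222 miRNAs tested, its mean correlation was 0.887 with the other obstructed arrays and 0.964 with the contralateral arrays. The changes and counts of calls are therefore given with and without it. It was left out because of its values, so the fits without it are no independent support.

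All values below are scaled signals, the summed signal of the probes of a miRNA divided by the 75th percentile signal of bright probes on its array. A change is thus set against the bright probes of its own array, and levels are not compared between miRNAs because their probes differ. In whole kidney RNA, more cells of a type and more RNA per cell cannot be told apart. Whether the probes of one miR-199 member also read another was not tested.

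In obstructed kidneys 1, 3 and 4, each of the 4 measurable members stood at 2.21 to 4.53 times its contralateral mean, while in obstructed kidney 2 they stood at 0.620 to 0.937 times that mean. With all 8 arrays, none of them passed the test. The log2 changes ran from 0.97 for miR-199b* to 1.44 for miR-214. Without obstructed kidney 2, all 4 rose, by 1.51 to 1.95 on the log2 scale.

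mmu-miR-214, the 3p strand of the Mir214 hairpin, had scaled signals of 2.55, 0.527, 1.76 and 2.30 in obstructed kidneys 1 to 4, against 0.506, 0.539, 0.685 and 0.538 in contralateral kidneys 1 to 4. Obstructed kidneys 1, 3 and 4 were above every contralateral kidney and obstructed kidney 2 lay among them, so the groups overlapped. Its log2 change was 1.44 ± 0.47 (SE, n = 4 each), a 2.71-fold higher level with a 95% interval of 1.27 to 5.79, and a limma adjusted p of 0.0774. Without obstructed kidney 2 the groups no longer overlapped, and miR-214 rose by 1.95 ± 0.17 (SE, n = 3 and 4), or 3.87-fold (limma adjusted p = 0.000365). It was the member with the largest change, ranked 7 of 222 miRNAs both with and without that array.

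mmu-miR-199a-5p, the strand known for targeting caveolin 1, had scaled signals of 1.94, 0.293, 1.26 and 1.74 in obstructed kidneys 1 to 4, against 0.422, 0.392, 0.597 and 0.508 in contralateral kidneys 1 to 4. Obstructed kidney 2 was here the lowest of all 8 kidneys and the other 3 obstructed kidneys the highest. The log2 change was 1.16 ± 0.57 (SE, n = 4 each), 2.24-fold with a 95% interval of 0.899 to 5.56 (limma adjusted p = 0.190). With obstructed kidney 2 left out, it rose by 1.78 ± 0.21 (SE, n = 3 and 4; limma adjusted p = 0.000708), or 3.43-fold.

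mmu-miR-199a-3p, the strand that all 3 loci of the family encode, had scaled signals of 8.59, 1.68, 5.64 and 6.99 in obstructed kidneys 1 to 4, against 2.19, 2.16, 2.93 and 2.26 in contralateral kidneys 1 to 4. The order of the kidneys was the same at both ends as for miR-199a-5p. Its log2 change was 1.05 ± 0.48 (SE, n = 4 each), 2.06-fold with a 95% interval of 0.962 to 4.43 (limma adjusted p = 0.155). Once obstructed kidney 2 was dropped, miR-199a-3p rose by 1.56 ± 0.18 (SE, n = 3 and 4; limma adjusted p = 0.000708), or 2.95-fold.

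mmu-miR-199b*, named on the array for the hairpin Mir199b, which lies in the span of Dnm1 and not of Dnm3os, had scaled signals of 1.55, 0.292, 1.02 and 1.44 in obstructed kidneys 1 to 4, against 0.400, 0.421, 0.574 and 0.470 in contralateral kidneys 1 to 4. Again obstructed kidney 2 was lowest and obstructed kidneys 1, 3 and 4 were highest. The Mir199b hairpin holds a stretch nearly equal to miR-199a-5p. Whether the probes of miR-199b* also read that strand was not tested, so its pattern is not shown to be that of a separate locus. The log2 change was 0.97 ± 0.51 (SE, n = 4 each), 1.96-fold with a 95% interval of 0.872 to 4.39 (limma adjusted p = 0.212). On the 7 arrays without obstructed kidney 2 it rose by 1.51 ± 0.20 (SE, n = 3 and 4; limma adjusted p = 0.00113), or 2.85-fold.

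**Figure D2:**
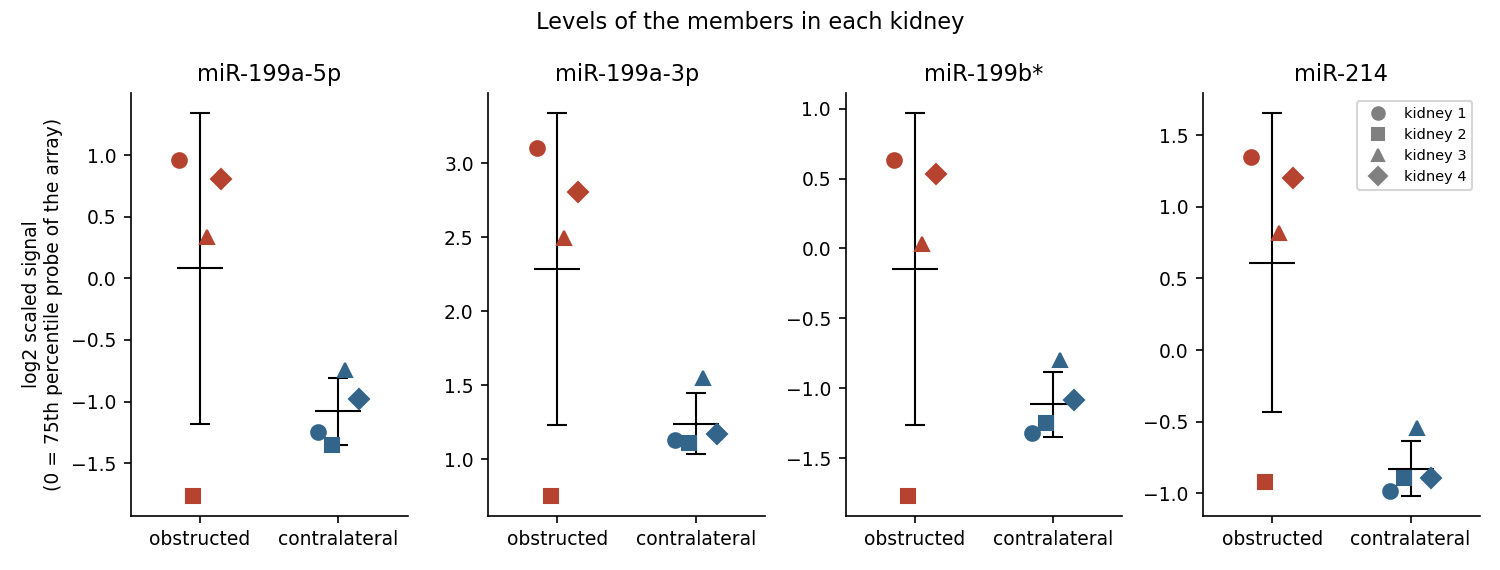
Log2 scaled signal of 4 members in each kidney, with 0 at the 75th percentile signal of bright probes of the array, obstructed left and contralateral right in each panel. Symbols mark kidney numbers, bars are means and whiskers are SD (n = 4 each), and each panel has its own vertical range. Obstructed kidneys 1, 3 and 4 lie above every contralateral kidney in each panel. Obstructed kidney 2 lies below all contralateral kidneys for miR-199a-5p, miR-199a-3p and miR-199b*, and among them for miR-214.

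The partner strand mmu-miR-214* could not be tested. Its summed scaled signal was between -0.0079 and 0.019 in obstructed kidneys and between -0.012 and -0.0013 in contralateral kidneys, all under the floor of 0.0213 below which no level was read. Only 1 of its 4 probes, A_54_P3523, was well above background, and that on the arrays of obstructed kidneys 3 and 4 alone. Its unscaled signal was 9.93, 0.0146, 15.4 and 35.2 in obstructed kidneys 1 to 4, against -0.913, 1.90, 1.24 and 1.22 in contralateral kidneys 1 to 4. Obstructed kidneys 1, 3 and 4 were thus the 3 highest and obstructed kidney 2 among the contralateral arrays, the same split as for miR-214. The other 3 probes were above background on 0 arrays, so these values were not taken as a level of miR-214*.

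Of the 5 members, 4 passed the filter on dim miRNAs, each above background on all 8 arrays. Among these 4, 0 were called on 8 arrays (limma, adjusted p under 0.05), where 14.9% of the 222 tested miRNAs were called in either direction and 1.35% as higher. At an unadjusted p under 0.05 there was 1, miR-214, against 36.5% of all tested miRNAs (limma). The groups overlapped for all 4, while 23.0% of tested miRNAs had groups that did not overlap. A log2 change of at least 1 was found for 3 of the 4, against 7.66% of tested miRNAs, and the median change of all tested miRNAs was -0.14. Without obstructed kidney 2, 4 of 4 were called higher, where 50.9% of tested miRNAs were called in either direction and 20.7% as higher, and 55.9% had an unadjusted p under 0.05 (limma). Their groups then did not overlap, as was so for 56.3% of tested miRNAs, of which the higher ones made up 23.9% of those tested.

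**Figure D3:**
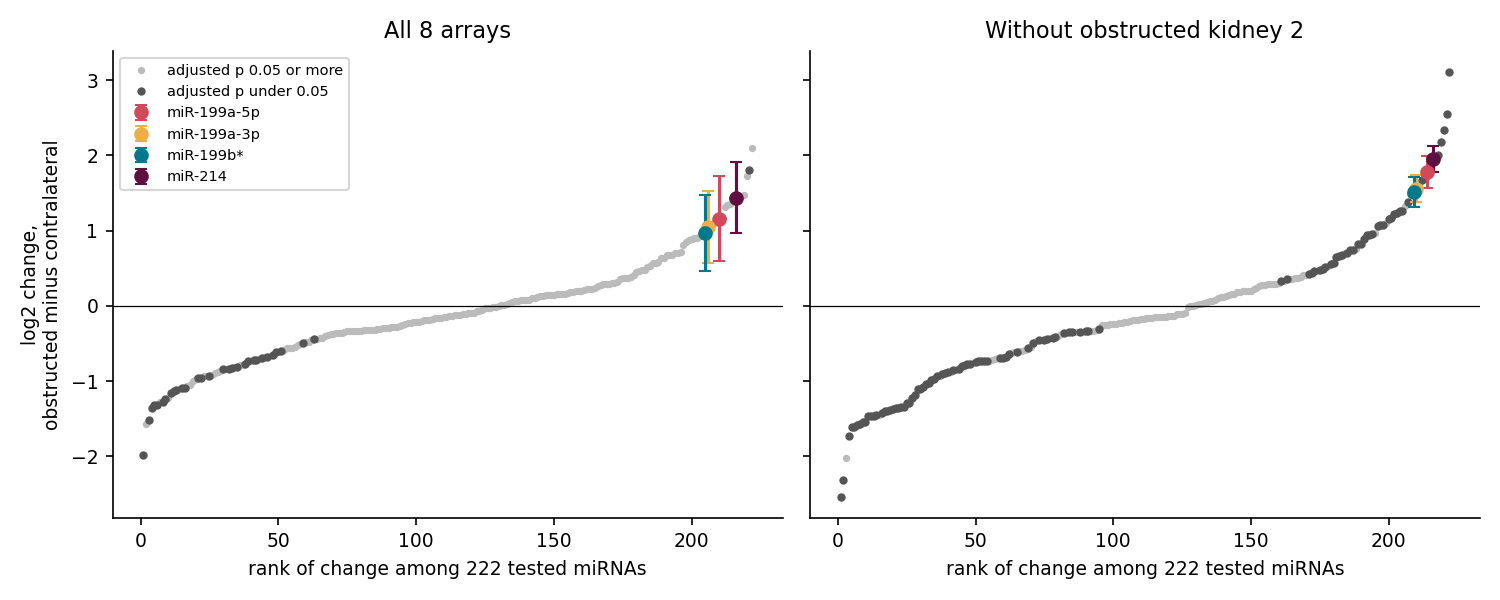
Log2 change, obstructed minus contralateral, of the 222 tested miRNAs ordered from the lowest to the highest, with all 8 arrays (left) and without obstructed kidney 2 (right). Dark grey points were called at a limma adjusted p under 0.05, and coloured points with SE bars are the 4 members, none of them called on the left and all 4 called on the right.

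Each of these 4 members was read by 2 probes of up to 10 spots. Over the 7 of these 8 probes that were above background on all arrays, the spot-to-spot coefficient of variation on an array was 1.80% to 23.6%, with medians per probe of 6.00% to 11.8%. The exception was the dimmer probe of miR-199a-5p, A_54_P2378, which was not above background in obstructed kidney 2. Single probes gave log2 changes between 0.96 and 1.45 on the 8 arrays and between 1.50 and 1.95 without obstructed kidney 2. The SD of the log2 level between obstructed kidneys was 1.05 to 1.26, against 0.19 to 0.27 between contralateral kidneys. Without obstructed kidney 2 it was 0.27 to 0.32.

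Slide row 1 held obstructed kidneys 1 and 2, whose mean log2 deviation of the 4 members from the contralateral mean was 1.96 and -0.48. Within that row the changes were 0.71 to 1.15 and 0 of 4 were called (limma adjusted p = 0.925 for each), as were 0.0% of all tested miRNAs. Within slide row 2, with obstructed kidneys 3 and 4 at 1.36 and 1.78, the changes were 1.22 to 1.73 (limma adjusted p from 0.0349 to 0.0398). There 4 of 4 were called higher, against 9.01% of tested miRNAs called higher and 31.1% in either direction, from 2 against 2 arrays.

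Leaving out the scaling raised the changes of all members by the same amount. Those changes were above 0 with scaling, so their direction could not turn, and their distance from the median change stayed the same. Values without scaling, here and for the lists below, are therefore to be read beside the median change. Without any scaling the median change of all tested miRNAs was 0.74, against -0.14 with scaling, and the changes of the members were 2.04 for miR-199a-5p, 1.93 for miR-199a-3p, 1.85 for miR-199b* and 2.32 for miR-214, none of them called (limma adjusted p from 0.0761 to 0.0867). In unscaled signal, miR-214 was 1755, 271, 2472 and 3666 in obstructed kidneys 1 to 4, against 259, 225, 378 and 313 in contralateral kidneys 1 to 4. The change of each member exceeded the median change of the miRNAs tested in all settings tried, by 0.83 to 2.12 on the log2 scale.

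**Figure D4:**
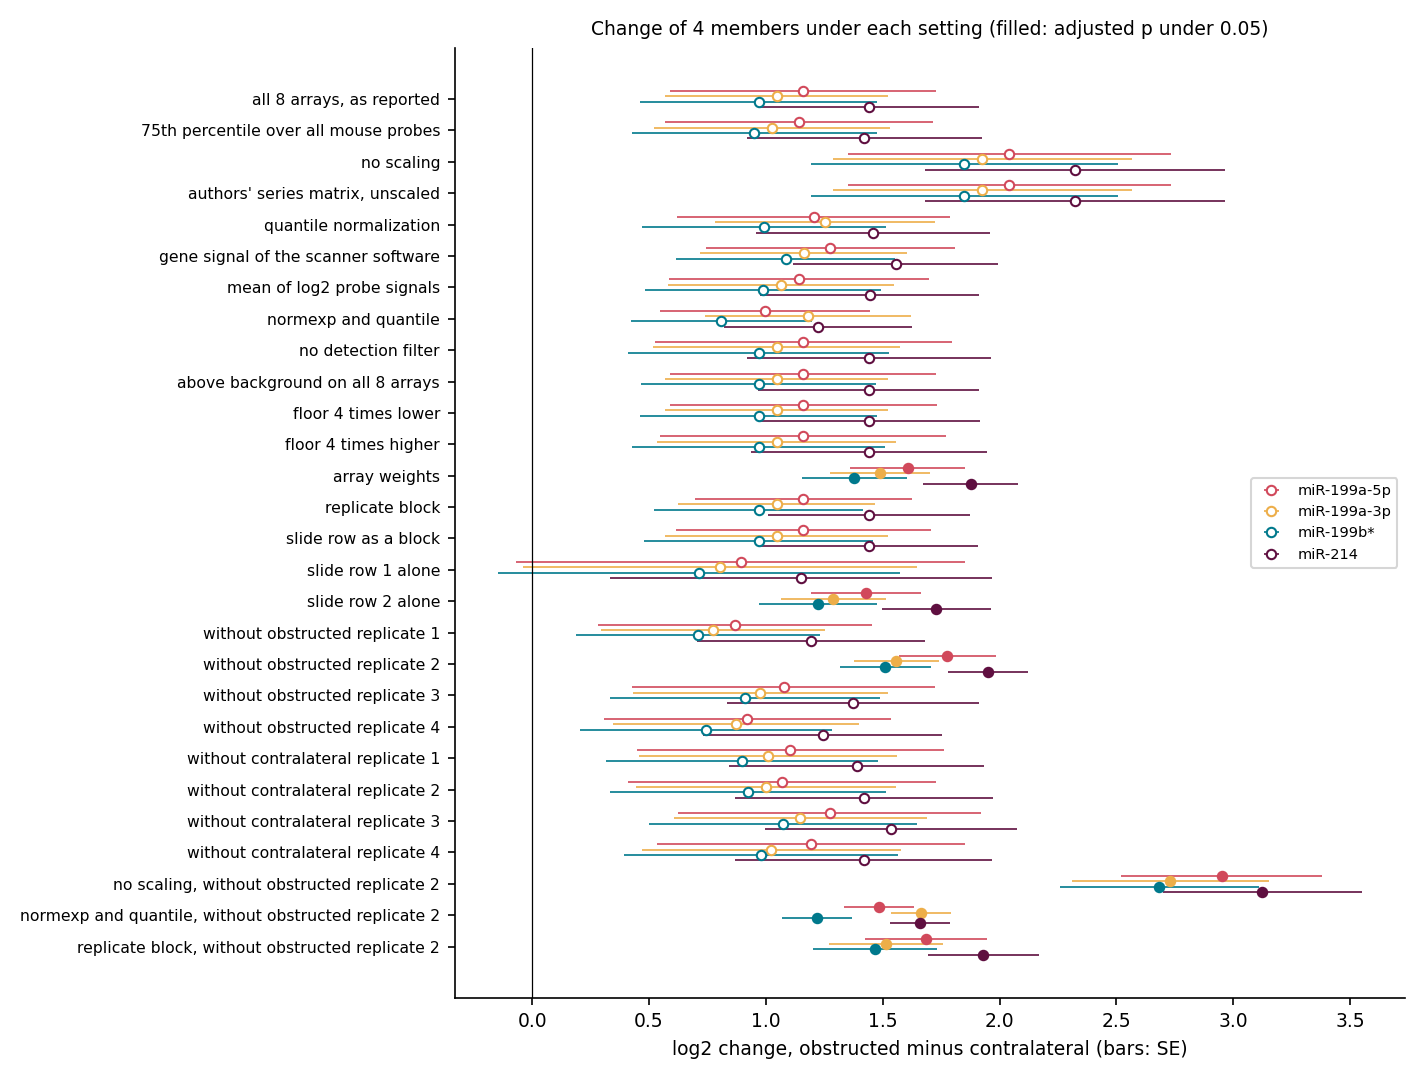
Log2 change of 4 members, obstructed minus contralateral, under each processing setting (rows), with SE bars and filled points at a limma adjusted p under 0.05. All points lie above 0, and filled points appear with array weights, in slide row 2 alone and wherever obstructed kidney 2 was left out. Array weights gave obstructed kidney 2 the lowest weight, and slide row 2 does not hold it.

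Members of one precursor or cluster were then compared within each array, which takes out any constant scaling. The question was whether the strands differed by the same factor in both groups. It cannot be answered for single hairpins, because miR-199a-5p is encoded at 2 loci and miR-199a-3p at 3. For the strands of the miR-199a hairpins, log2 miR-199a-5p minus miR-199a-3p was -2.14, -2.52, -2.16 and -2.0 in obstructed kidneys 1 to 4, against -2.38, -2.46, -2.29 and -2.15 in contralateral kidneys 1 to 4. The groups overlapped, and the shift of 0.11 was within the spread between kidneys (exact permutation p = 0.429, two-sided, 70 assignments, Benjamini-Hochberg adjusted over 2 comparisons 0.429).

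miR-214 stood higher beside miR-199a-3p in all 4 obstructed kidneys, kidney 2 included, than in any contralateral kidney. The miR-199a-3p signal can also hold strands from loci outside Dnm3os, so the 2 hairpins of Dnm3os are not compared alone. The log2 difference, miR-199a-3p minus miR-214, was 1.75, 1.67, 1.68 and 1.61 in obstructed kidneys 1 to 4, against 2.12, 2.01, 2.10 and 2.07 in contralateral kidneys 1 to 4. The groups did not overlap, and the means were 1.68 ± 0.061 in obstructed and 2.07 ± 0.048 in contralateral arrays (SD, n = 4 each), a shift of -0.39. The exact permutation p was 0.0286, two-sided, the smallest that 4 against 4 arrays can give, and 0.0571 when adjusted over the 2 comparisons, which does not pass 0.05. Of all 24531 pairs of tested miRNAs, 13.6% had groups that did not overlap in this measure. The 4 pairings of a single probe of one with a single probe of the other gave shifts between -0.45 and -0.31, each with groups that did not overlap. With normexp background correction and quantile normalization the shift was -0.041 (exact permutation p = 0.600). The same setting turned the difference between the miR-199a strands to -0.18 (exact permutation p = 0.0286). Both within-array differences thus changed with that setting, and the cause was not tested. The pair of miR-214 and miR-214* gave no value, since miR-214* was at the floor on all 8 arrays.

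miR-199a-5p and miR-199b* were set side by side without a test. Log2 miR-199a-5p minus miR-199b*, relative to its contralateral mean, was 0.29, -0.030, 0.27 and 0.24 in obstructed kidneys 1 to 4, against 0.043, -0.14, 0.022 and 0.074 in contralateral kidneys 1 to 4. Obstructed kidneys 1, 3 and 4 lay above every contralateral kidney and obstructed kidney 2 lay among them.

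**Figure D5:**
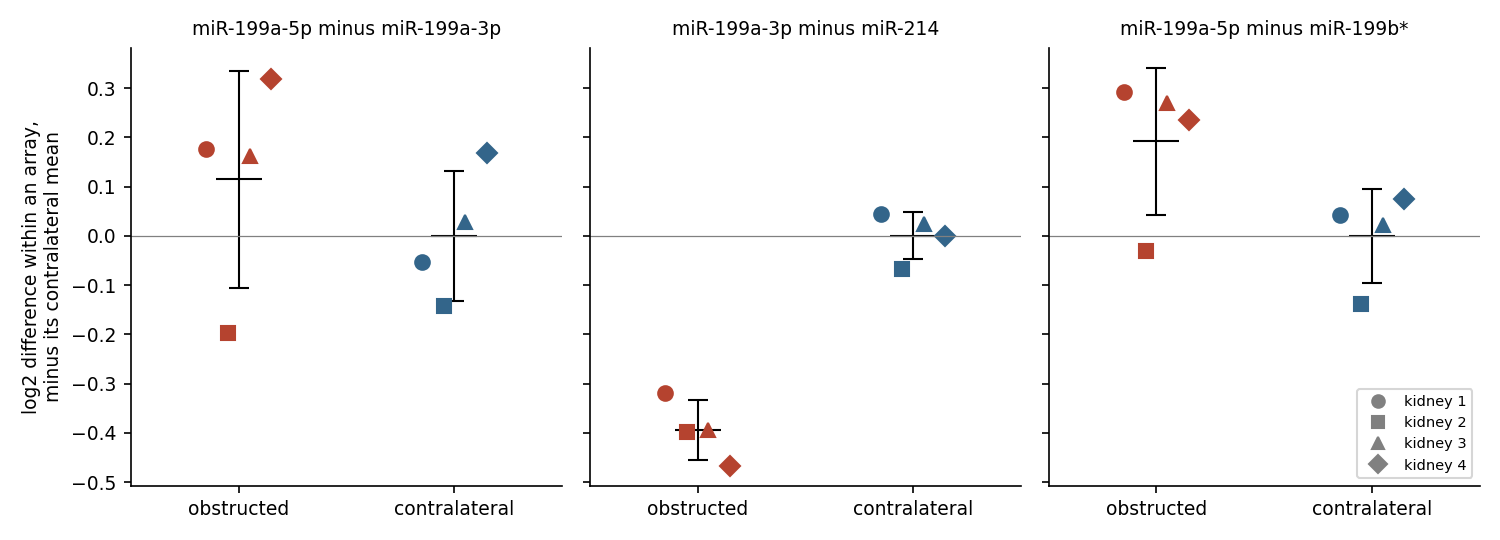
Log2 difference between 2 members within each array, minus its contralateral mean, obstructed left and contralateral right, with symbols for kidney numbers, means and SD whiskers (n = 4 each). For miR-199a-3p minus miR-214 all 4 obstructed kidneys lie below all 4 contralateral kidneys, and in the other panels the groups overlap.

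Other miRNAs followed the same pattern over the kidneys. Likeness was measured as Pearson's r, over the 8 arrays, with the mean of the 4 members, and is a description that rests largely on obstructed kidneys 1, 3 and 4 standing apart from the other 5. Each member had r of 0.979 to 0.997 with the mean of the other 3. The 5 most alike among the other 218 tested miRNAs were let-7i (0.993), miR-146b (0.979), miR-350 (0.976), miR-674* (0.970) and miR-223 (0.968). let-7i, of the let-7 family of growth-repressing miRNAs, had log2 levels 1.26, -0.27, 1.12 and 1.27 from the contralateral mean in obstructed kidneys 1 to 4, against -0.11, -0.10, 0.28 and -0.063 in contralateral kidneys 1 to 4. miR-146b, induced by inflammatory signalling, stood at 3.22, -0.91, 3.01 and 3.1 in obstructed kidneys 1 to 4, against 0.29, -0.55, 0.26 and -0.013 in contralateral kidneys 1 to 4. Both showed the same 3 kidneys high and obstructed kidney 2 low, and their groups overlapped. On 8 arrays none of the 5 was called (limma adjusted p from 0.0837 to 0.279). All 5 were called higher once obstructed kidney 2 was left out (limma adjusted p from 5.81e-05 to 0.00191), against 20.7% of all tested miRNAs. The log2 changes were then 1.22 for let-7i, 3.11 for miR-146b, 1.07 for miR-350, 0.95 for miR-674* and 2.01 for miR-223. The 5 were chosen for following the members over these same arrays, so these calls are no separate support. miR-21, the miRNA most often described in kidney fibrosis, had r of 0.966 and stood at 0.81 ± 0.46 in log2 (4 and 4 kidneys, SE; adjusted p by limma 0.234).

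Of the marker lists, that of leukocytes moved with the members, and the part of any list in the result was not tested. Of 7 leukocyte miRNAs 5 were above background on all arrays. The summed scaled signal of the 7 was 7.69, 1.88, 7.40 and 6.84 in obstructed kidneys 1 to 4, against 2.01, 2.71, 1.98 and 2.07 in contralateral kidneys 1 to 4. Obstructed kidney 2 was thus lowest here too. For the leukocyte miRNAs 0 of 5 tested were called on 8 arrays (limma, median log2 change 1.35), where 1.35% of all tested miRNAs were called higher. Without obstructed kidney 2, 5 of 5 were called higher (median 1.98), against 20.7% of all tested miRNAs. miR-223, a marker of myeloid cells, was at 1.45 ± 0.50 in log2 (4 and 4 kidneys, SE; adjusted p by limma 0.0837), miR-146a at 0.67, miR-142-3p at 1.31 and miR-342-3p at 1.46. With that kidney left out, the values were 2.01 for miR-223, 0.94 for miR-146a, 1.67 for miR-142-3p and 2.34 for miR-342-3p.

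The summed scaled signal of the tubule miRNAs was lower in every obstructed kidney, kidney 2 included, than in any contralateral kidney. Over the 6 miRNAs it was 20.3, 30.3, 21.3 and 16.4 in obstructed kidneys 1 to 4, against 40.7, 38.4, 40.8 and 42.4 in contralateral kidneys 1 to 4. The separation depended on the scaling, since sums multiplied back by each array's 75th percentile signal were highest in obstructed kidneys 3 and 4. Of single tested miRNAs, 23.0% had groups that did not overlap, in either direction. miR-215 was below background on all 8 arrays. On 8 arrays 3 of 5 tested were called lower, against 13.5% of all tested miRNAs, with miR-30a at -0.84 ± 0.20, miR-192 at -1.27 ± 0.26 and miR-194 at -1.31 ± 0.18 in log2 (SE, 4 and 4 kidneys). miR-200b was at -0.59 (limma adjusted p = 0.0649) and miR-204 at -0.12 (limma adjusted p = 0.755). Leaving obstructed kidney 2 out, 4 of 5 were called lower, against 30.2% of all tested miRNAs, with miR-200b at -0.73 (limma adjusted p = 0.00306) and miR-204 at 0.082 (limma adjusted p = 0.718). These calls and those below on 8 arrays depended on the settings, since 0 miRNAs of any kind were called with the percentile over all mouse probes, with the replicate block, or without any 1 of obstructed kidneys 1 and 3 and contralateral kidneys 1, 3 and 4 (limma). Without scaling 0 of 5 were called, and miR-30a was at 0.039, miR-192 at -0.39 and miR-194 at -0.43, so the direction of miR-30a turned.

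In the stromal and smooth muscle list the groups overlapped. miR-143, its 1 tested member and a miRNA of smooth muscle and other mesenchymal cells, differed by 0.10 ± 0.23 in log2 (4 and 4 kidneys, SE; adjusted p by limma 0.770), and 0.31 ± 0.15 without obstructed kidney 2 (limma adjusted p = 0.133; SE, n = 3 and 4). Its partner miR-145 was above background on 6 of 8 arrays and miR-145* on 0 of 8. The summed scaled signal of the list was 0.937 to 1.96 in obstructed and 1.20 to 1.51 in contralateral kidneys. Of the endothelial pair, the 5p strand miR-126-5p was called lower at -0.81 ± 0.18 in log2 (SE; adjusted p by limma 0.0266), while for miR-126-3p the value was -0.30 (adjusted p by limma 0.201). With obstructed kidney 2 left out these were -0.79 (adjusted p by limma 0.0120) and -0.23, and without scaling miR-126-5p turned to 0.074. The pair had summed signals of 9.57 to 13.2 in obstructed and 12.1 to 15.2 in contralateral kidneys. Striated muscle markers were dim. The 1 tested, miR-1, was at -0.81 (limma adjusted p = 0.0906), and at -0.73 without obstructed kidney 2 (limma adjusted p = 0.0982), with summed signals of 0.0637 to 0.0807 in obstructed and 0.0741 to 0.132 in contralateral kidneys. miR-122 of liver and miR-124 of brain were below background on all 8 arrays, and miR-9 was at -0.10, or -0.15 without obstructed kidney 2.

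Among 15 other miRNAs with described roles in organ fibrosis, 12 were tested, and they did not move one way. The list shared miR-192 and miR-200b with the tubule list and miR-155 with the leukocyte list, so those values are counted again here. It also held let-7i, named above among the most alike miRNAs. On 8 arrays 4 of 12 were called lower and 0 higher (limma), against 13.5% of all tested miRNAs called lower and 1.35% higher, with a median log2 change of -0.35 against -0.14 for all tested miRNAs. The 4, of which miR-29c and miR-200a were named after their values were seen, were miR-29a and miR-29c, known to repress collagen messenger RNAs, at -0.49 and -1.09, miR-192 at -1.27 and miR-200a, an epithelial miRNA, at -0.72. Without scaling 0 of 12 were called, miR-29c and miR-192 stayed below 0 and miR-29a and miR-200a turned to 0.39 and 0.16. Without obstructed kidney 2, 4 of 12 were called higher and 6 lower, against 20.7% of all tested miRNAs called higher and 30.2% lower. The 4 higher, of which miR-132 and miR-155 were named after their values were seen, were miR-21, by 1.27 ± 0.25, miR-132, by 2.54 ± 0.58, miR-155, by 1.98 ± 0.21, and let-7i, by 1.22 ± 0.13 (SE, n = 3 and 4). miR-34a, which p53 induces, was at -0.19 on 8 arrays (adjusted p by limma 0.531) and at -0.13 without obstructed kidney 2 (adjusted p by limma 0.633).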

How the data were processed

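Spot intensities came from Agilent Feature Extraction, version 10.7.3.1 per the file headers and 10.1.1 per the submitters' processing notes. The software had subtracted local background, removed a spatial trend and marked outlier spots (2.34% to 3.52% of non-control spots, left out here) per the file headers, without a step that scales arrays to each other. The authors' series matrix intensities equalled the processed signals exactly. Other deposited values used were marks of 0 or 1 per spot, a unit other than intensity, for outliers and signal well above background.

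Spots were averaged per probe (1759 probes, 611 mouse miRNAs), divided by the array's 75th percentile over 371 probes above background on all arrays, summed per miRNA, floored at 0.0213 and log2-transformed. Detection of a probe needed the mark on more than 50% of its spots. The 222 miRNAs above background on all 4 arrays of a group were tested with limma 3.58.1 in R 4.3.3, Benjamini-Hochberg adjusted over all 222. Within-array differences were tested by exact permutation. The steps were tested on simulated data. The number of arrays limits the precision.

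Names are those of the array design. The text names the 5 members, the 5 most alike miRNAs, miR-21, miR-34a and up to 4 miRNAs of each list by mean signal. miR-29c, miR-200a, miR-132, miR-155 and markers below background were named outside that rule, after their values were seen. The members and lists were chosen with earlier results of these data known. The array names miR-214 and miR-214* were matched to RefSeq's miR-214-3p and miR-214-5p. The labels do not state that same-numbered kidneys shared a mouse, so the numbers were not taken to pair them. The correlations of same-numbered kidneys, given below, cannot show whether they did. Alternatives covered scaling, summary, background correction, detection filter, floor, array weights, blocks and leaving out each kidney.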

Additional observations from a re-analysis of the deposited data

Results flagged for a closer look

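Among contralateral kidneys, kidney 3 stood apart for miR-199a-3p. Its scaled signal of 2.93 lay above 2.19, 2.16 and 2.26 in kidneys 1, 2 and 4, and the gap to the nearest kidney was 0.857 of the range of the log2 levels, above Dixon's 95% critical value for 4 samples. Chance flags about 1 in 20 such groups, and 12 groups were examined. The obstructed groups, with obstructed kidney 2 far below, reached 0.742 to 0.772 and were not flagged.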

How the results depend on the processing

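Under 24 other settings, the changes of the 4 members stayed above 0. These settings are not separate checks, since many are fits on part of the arrays. The unscaled series matrix gave the same values as no scaling. The detection filters, floors and blocks left the 4 changes as they were. No call was lost because none was made on 8 arrays. With array weights, 4 members were called, at 1.61 for miR-199a-5p, 1.49 for miR-199a-3p, 1.38 for miR-199b* and 1.88 for miR-214. There 54 of the 222 tested miRNAs were called higher. In slide row 2 alone 4 were called, at 1.43, 1.29, 1.22 and 1.73 in the same order, against 9.01% of tested miRNAs called higher. The weights came from these same values, and that of obstructed kidney 2, 0.114, was the lowest. Slide row 2 does not hold that kidney, so neither setting is support apart from leaving it out. Leaving out 1 kidney at a time gave 0.87 to 1.78, 0.77 to 1.56, 0.71 to 1.51 and 1.19 to 1.95, with 0 to 4 members called, and only the fit without obstructed kidney 2 called any. That fit called 20.7% of all tested miRNAs as higher. Settings added after seeing the data, all without obstructed kidney 2, called 4 members each. Without scaling they were at 2.95, 2.73, 2.68 and 3.12, where 113 of 222 tested miRNAs were called higher. With normexp and quantile normalization they were at 1.48, 1.67, 1.22 and 1.66, where 52 of 222 were called higher. With the replicate block they were at 1.69, 1.52, 1.47 and 1.93, where 30 of 222 were called higher.

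The replicate number as a block left the 4 changes at 1.16, 1.05, 0.97 and 1.44 with 0 members called (limma adjusted p from 0.0999 to 0.211). Same-numbered kidneys correlated at -0.35, 0.22, 0.62 and 0.015 in their deviations from the group means.

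Of all miRNAs, 33 were called on 8 arrays. The count was 0 with the percentile over all mouse probes (56 at an unadjusted p under 0.05), 0 with the replicate block (67), 0 in slide row 1 alone (1), 3 without scaling and with the unscaled series matrix (3 higher and 0 lower, against 3 higher and 30 lower with scaling), 3 with quantile normalization, 3 with the software's gene signal, 1 with normexp and quantile normalization, 17 with no detection filter, 69 in slide row 2 alone and 138 with array weights. Leaving out 1 kidney gave 0 to 113 (limma): 113 without obstructed kidney 2, 14 without obstructed kidney 4, 20 without contralateral kidney 2 and 0 without each of the other 5. Further, without obstructed kidney 2 it was 115 without scaling, 101 with normexp and quantile normalization and 82 with the block. The cause was not tested.

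The shift of miR-199a-3p minus miR-214 was -0.42 to -0.37 when 1 kidney was left out, -0.041 with normexp and quantile normalization, and -0.21 with quantile normalization alone, a setting added for these shifts after seeing the data. That of miR-199a-5p minus miR-199a-3p was 0.047 to 0.22 when 1 kidney was left out, and turned to -0.18 with normexp and quantile normalization and to -0.049 with quantile normalization alone.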
